A study of Mus musculus with 10 samples.

Results

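Kidneys lacking netrin 1 in the stroma (Ntn1SPKO) were compared with Foxd1GC control kidneys at embryonic day E13.5, across the compartments and pathways of the developing organ. The members of this comparison were the protein-coding genes whose mean reached 0.5 FPKM (fragments per kilobase of transcript, scaled to library size) over the 3 control and 3 mutant libraries, a rule that used no difference between the groups. It kept 13282 of the 21720 protein-coding entries and of the 35663 entries in all. Bulk RNA was sequenced from whole kidneys of C57/b6 mice. The labels give the controls as Foxd1-Cre and the mutants as Foxd1-Cre with Ntn1/cc, the study's floxed allele on both chromosomes. Both groups carried Foxd1GC, an allele that makes a GFP-Cre fusion in place of 1 copy of *Foxd1* and is active in stromal progenitors. *Foxd1* dosage was therefore reduced in both groups, and *Ntn1* was targeted in the stromal lineage only. A further 4 Wild type libraries, which carry neither allele, are given as levels beside the comparison and were not tested against it. The study counts 1 embryo as 1 replicate in its legends and states that experiments drew on several litters. Which litter each library came from is not given in the sources used here, so p-values measure the spread between these samples.

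The renal stroma arises largely from Foxd1+ progenitors at the surface of the organ, which form interstitial fibroblasts, pericytes, mesangium and vascular smooth muscle. Stromal cells exchange signals with the nephron progenitors of the cap mesenchyme, with the branching ureteric bud and with the ingrowing endothelium. Netrin 1 is a secreted, laminin-related guidance cue known for steering axons and vessels through Dcc, neogenin and Unc5 receptors. In bulk kidney RNA, fewer cells of a type and less RNA per cell cannot be told apart, and this holds for every compartment described here.

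Libraries of the 2 groups were of similar scale, with summed FPKM of 816628 to 874966 in the controls and 816075 to 818731 in the mutants. Read totals are not given with FPKM values, so the depth behind each value is unknown. Mitochondrially encoded genes took 5.45 to 6.05% of FPKM in the controls and 5.78 to 6.61% in the mutants. Kidney markers were present in all 6 libraries, with *Six2* at 73.8 FPKM or more and *Wt1* at 75.2 FPKM or more. Control replicate 3 stood apart, with correlations of 0.928 to 0.951 to the other libraries across tested entries, and it held the lowest levels of epithelial genes and the highest of skeletal muscle genes. Y-linked transcripts summed to 88.6 to 95.1 FPKM in the 3 mutants and to 98.1 FPKM in control replicate 2, but to 0.359 and 1.02 FPKM in control replicates 1 and 3. Embryo sex thus differed between the groups in all but 1 control, and a fit with sex as a covariate reduces to the mutants against control replicate 2 alone. The plot of list medians therefore also gives 31 compartment and pathway lists without control replicate 2 and without control replicate 3.

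Differences were measured as log2 fold changes, mutant over control, of FPKM+0.1 (given ± standard error) and tested with limma, with p-values adjusted over all 14550 entries tested. The median log2 fold change of the members was 0.0092, with 6402 lower and 6880 higher in the mutants, and 90% of the members lay between −0.58 and 0.37. At adjusted P under 0.1 and a fold of at least 2, 0 members were called lower (0.0% of members) and 1 was called higher (0.00753%). At an unadjusted P under 0.05, 680 were lower (5.12%) and 744 higher (5.6%). The 3 mutants lay wholly below the 3 controls for 1214 members (9.14%) and wholly above them for 1543 (11.6%). These shares are the background for the counts in each gene group below, where 713 of the 831 genes listed passed the 0.5 FPKM filter. Without control replicate 2, where sex and group cannot be told apart, 39 members were called lower and 9 higher. Of the genes described below, *Ntn1*, *Smoc2*, *Postn*, *Col1a1*, *Col3a1*, *Col6a2*, *Col6a3*, *Col14a1*, *Dkk2*, *Sfrp1*, *Tgfb2*, *Sema3a*, *Eno1*, *Bub1b*, *Rec8* and *Myom2* had adjusted P under 0.1 in that fit, and *Crygn* and *Arntl2* in fits without mutant replicate 3 and mutant replicate 1. For a single gene, an exact permutation test of 3 libraries against 3 cannot give a p below 0.1. With the exception of *Lmx1b*, *Rpl26*, *Gm8797* and the pseudogene *Gm15772*, no gene described here passed the adjusted threshold with all 6 libraries, so the values below are descriptions of direction and size.

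The called gene was *Lmx1b*, a LIM-homeodomain transcription factor known for roles in podocytes, limb and kidney (chromosome 2, bases 33560965 to 33640511 of GRCm38). Its values were 0.498, 0.56 and 0.68 FPKM in the controls and 3.16, 3.25 and 4.15 FPKM in the mutants. All 3 mutants lay above all 3 controls, and *Lmx1b* rose by 2.41±0.21 on the log2 scale (adjusted P=0.0398, limma). Wild type libraries gave 3.61, 1.86, 0.36 and 3.87 FPKM, a spread from below the lowest control to within the mutant range. The adjusted P of *Lmx1b* ran from 0.0193 to 0.448 over the other fits. It was above 0.1 with all 10 libraries, with a replicate block, with embryo sex as a covariate and without control replicate 1, mutant replicate 2 or mutant replicate 3, while the log2 fold change stayed between 1.51 and 2.58. Of 12 podocyte markers tested, *Lmx1b* among them, 6 were lower and 6 higher (median 0.013).

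Transcripts of *Ntn1* (chromosome 11, bases 68209364 to 68400823 of GRCm38) were at 40.7, 24.2 and 51.4 FPKM in the controls and 16.3, 13.1 and 10.7 FPKM in the mutants. Every mutant was below every control, and the fitted mutant level was 0.358 of the control level (log2 fold change −1.48±0.29, limma adjusted P=0.447, exact permutation P=0.1). Without control replicate 2, the lowest control, the adjusted P was 0.0723. The Wild type range was 27.1 to 46.3 FPKM. Whole-gene values cannot show which exons the remaining transcripts carry. *Foxd1*, the stromal progenitor transcription factor whose locus carries the Cre, was at 19.7, 14.6 and 25.6 FPKM in the controls and 14.3, 15.4 and 14.2 FPKM in the mutants (−0.41±0.19), with overlapping groups, and at 21.3 to 30.7 FPKM in Wild type. *Klf4*, a zinc-finger factor that holds smooth muscle progenitors undifferentiated, was at 14.2, 7.22 and 22.1 FPKM in the controls and 7.39, 6.62 and 7.2 FPKM in the mutants (−0.89±0.38), with control replicate 2 inside the mutant range.

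Receptors of netrin 1 overlapped between the groups. Neogenin (*Neo1*) was at 47.4, 41 and 43.2 FPKM in the controls and 48.8, 48.1 and 45.2 FPKM in the mutants, and the repulsive receptor gene *Unc5c* at 45.1, 39.3 and 35.8 FPKM in the controls and 46.6, 43.6 and 39.7 FPKM in the mutants. Their 95% intervals for the log2 fold change were −0.065 to 0.29 and −0.14 to 0.37. *Dcc*, the attractive receptor, was near 1 FPKM throughout (0.094±0.24), and *Unc5b*, an endothelial receptor, gave 0.19±0.15. Of 10 netrins and receptors tested, 6 were lower and 4 higher (median −0.033). Besides *Ntn1*, only *Ntng1*, a membrane-anchored netrin relative, had groups that did not overlap (−0.30±0.22).

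**Figure D1:**
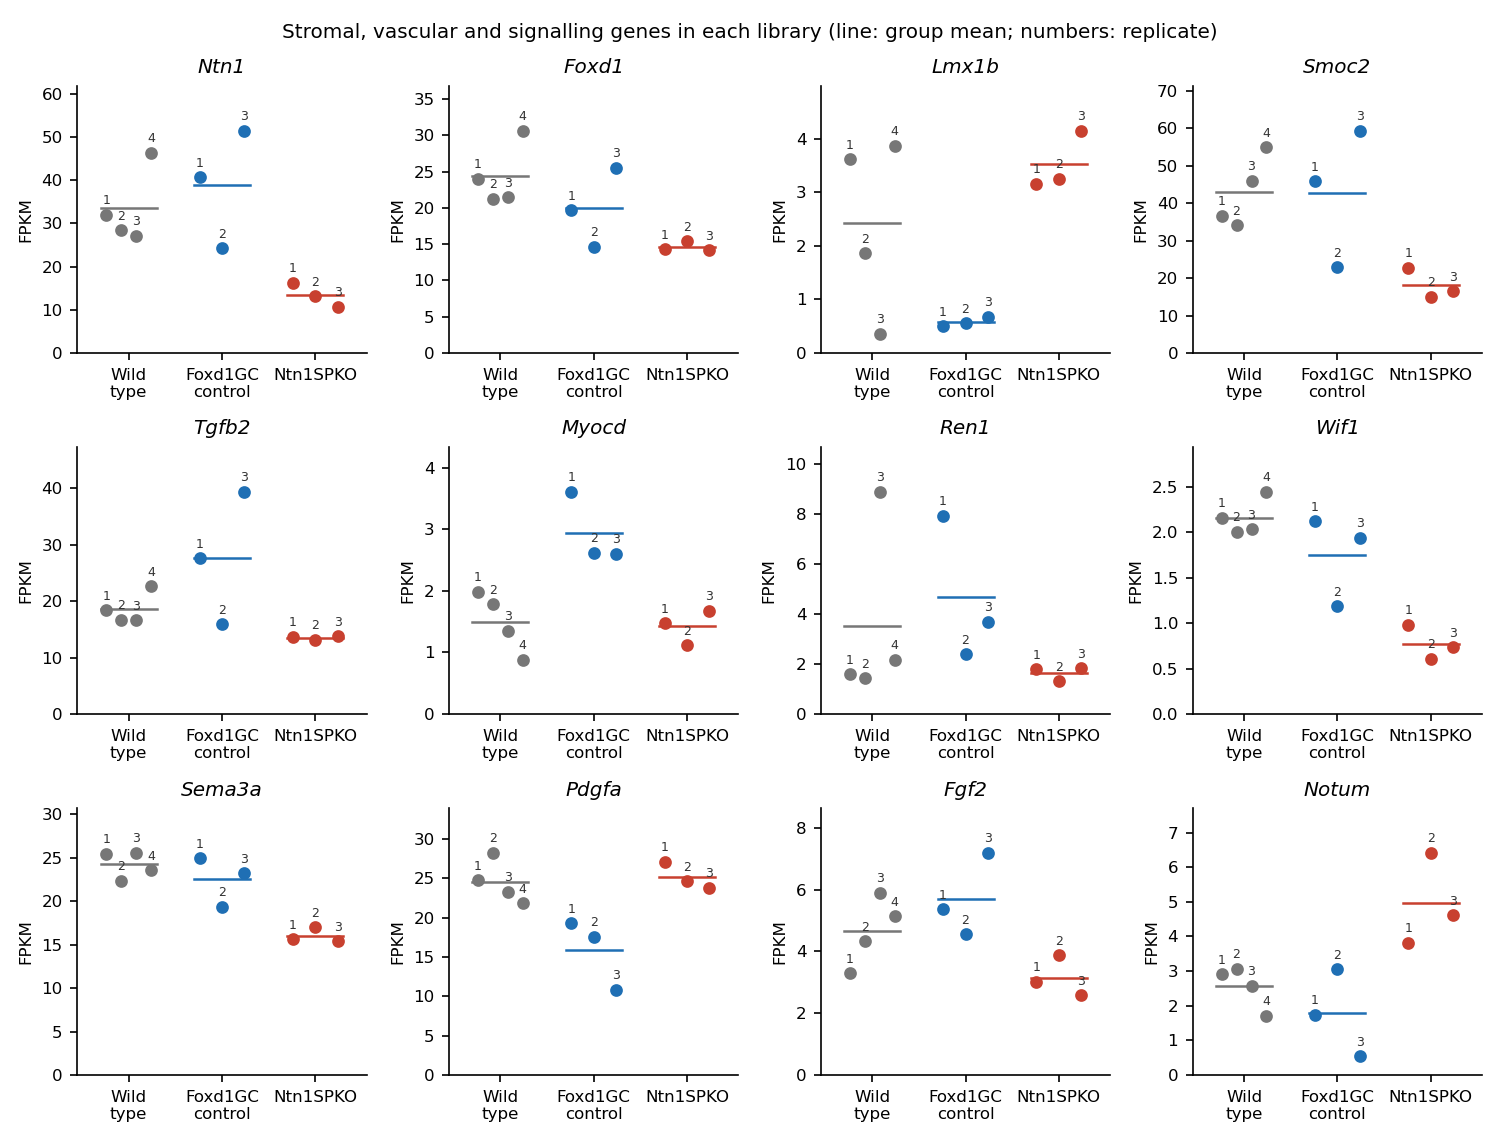
FPKM of 12 genes in each library, with 1 point per library for the Wild type (n=4), Foxd1GC control (n=3) and Ntn1SPKO (n=3) groups and a bar at each group mean. *Lmx1b*, *Pdgfa* and *Notum* lie higher in all 3 mutants than in all 3 controls, and *Ntn1*, *Smoc2*, *Tgfb2*, *Myocd*, *Ren1*, *Wif1*, *Sema3a* and *Fgf2* lie lower, while *Foxd1* overlaps.

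A second gene past the adjusted threshold, *Rpl26*, has to be read together with a pseudogene. It encodes a protein of the large ribosomal subunit (chromosome 11, bases 68901583 to 68906989) and was at 1170.4, 1236 and 1209.5 FPKM in the controls and 1847, 1918 and 1816 FPKM in the mutants (log2 fold change 0.63±0.05, limma adjusted P=0.0315, under the 2-fold limit). Its adjusted P ran from 0.0105 to 0.448 over the other fits and was above 0.1 without an intensity trend, with all 10 libraries, a replicate block or embryo sex, and without control replicate 1 or any 1 mutant. *Gm15772*, a processed pseudogene on chromosome 5 (bases 3236431 to 3236868), was at 1034, 1061 and 1096 FPKM in the controls and at 15.1, 6.96 and 8.14 FPKM in the mutants. It fell by 6.79±0.27 on the log2 scale (adjusted P=0.000706, limma), and of 17 other fits 16 kept the adjusted P under 0.1, all but the one with all 10 libraries (0.448). *Rpl26* and *Gm15772* thus lay apart in opposite directions. Summed, the entries gave 2269 ± 55.6 FPKM in the controls and 1870.4 ± 50.7 FPKM in the mutants (SD, n=3), so that the summed level was lower in every mutant although *Rpl26* alone was higher. In Wild type, *Gm15772* was at 990, 967 and 1498 FPKM in replicates 1 to 3 and at 5.63 FPKM in replicate 4, and *Rpl26* at 1142, 1181, 1824 and 1858 FPKM. The coding sequence of *Rpl26* and the pseudogene (GENCODE M21) are 438 bases long and differ at 2 positions, an identity of 99.5%. Of all 408 stretches of 31 bases in *Gm15772*, 96.6% occur in another annotated gene (84.8% in *Rpl26*). For *Rpl26* the 1476 stretches were taken from whole transcripts, with bases outside the coding sequence, and 27.0% occur in another gene (23.4% in *Gm15772*). The 2 shares are therefore not alike, and the share over the *Rpl26* coding sequence alone was not counted. The part of read assignment between the entries was not tested. Nor was that of linkage of *Rpl26* to the targeted *Ntn1* locus, which lies nearby on chromosome 11. The stretch that holds both differences, positions 169 to 288 of each, is shown with the differing bases in capitals. The *Gm15772* stretch lies at chr5:3236599-3236718 on the plus strand of GRCm38.
Rpl26: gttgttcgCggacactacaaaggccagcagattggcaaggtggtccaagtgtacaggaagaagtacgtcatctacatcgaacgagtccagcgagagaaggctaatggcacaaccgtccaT
Gm15772: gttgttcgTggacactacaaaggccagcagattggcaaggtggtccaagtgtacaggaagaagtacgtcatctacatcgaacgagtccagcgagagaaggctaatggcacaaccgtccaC

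**Figure D2:**
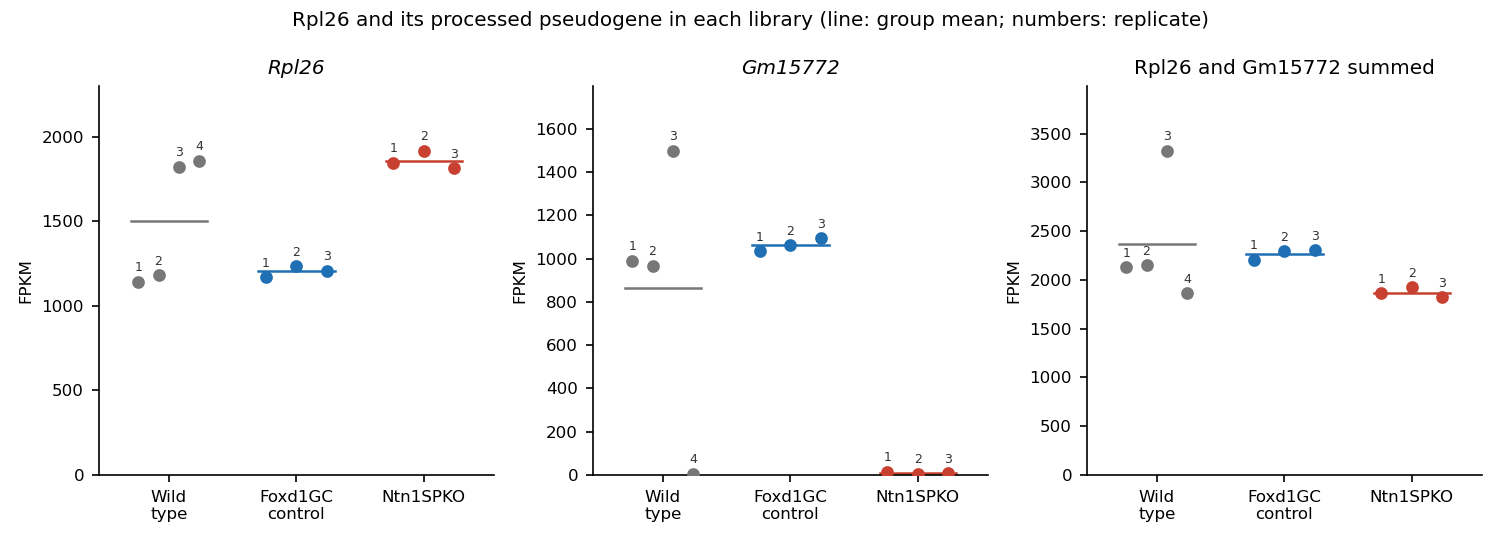
FPKM of *Rpl26*, of the pseudogene *Gm15772* and of their sum in each of the 10 libraries, with 1 point per library. The 3 mutants and Wild type replicate 4 hold under 20 FPKM of *Gm15772* and at least 1816 FPKM of *Rpl26*, while the summed level of the mutants lies below that of the controls.

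*Gm8797*, a ubiquitin-like entry on chromosome 3 annotated as protein-coding, was at 714, 701 and 669 FPKM in the controls and 959, 1001 and 1021 FPKM in the mutants (log2 fold change 0.52±0.05, limma adjusted P=0.0689, range over the other fits 0.0615 to 0.448, with 10 of them above 0.1). Of the 31-base stretches of *Gm8797*, 93.0% occur in *Gm1821*, whose values are not given here, and 85.7% in the ubiquitin gene *Ubb*. *Ubb* was at 831, 809 and 831 FPKM in the controls and 716, 752 and 769.8 FPKM in the mutants. Here too the entries, *Gm8797* and *Ubb*, differed in opposite directions. Their sum was 1545, 1509.6 and 1499.7 FPKM in the controls and 1675, 1753 and 1791 FPKM in the mutants. *Gm8797* was at 685 to 1422 FPKM in Wild type. *Rpl26* and *Gm8797* are therefore given as uncertain single-gene values.

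Both stromal lists showed mixed directions. Among cortical stromal progenitor genes, 12 of 19 tested members were lower and 7 higher (median −0.087, and 0.043 against control replicate 2 alone). At an unadjusted P under 0.05, 1 was lower and 1 higher, and the lower one was *Ntn1*, the targeted gene itself. Median log2 levels of the list were 5.38, 5.09 and 5.69 in the controls and 4.98, 5.20 and 5.19 in the mutants, so the groups overlapped. *Smoc2*, a matricellular protein listed under medullary and ureteric stroma, was at 45.8, 22.9 and 59.4 FPKM in the controls and 22.8, 15.1 and 16.5 FPKM in the mutants (−1.15±0.36). Mutant replicate 1 lay just under control replicate 2 and the other mutants well under all controls. *Aldh1a3*, a retinaldehyde dehydrogenase, differed the other way, at 14.2, 16.3 and 9.54 FPKM in the controls and 17.3, 20.4 and 19.6 FPKM in the mutants (0.55±0.20). Control replicate 3 was its lowest control, as for the ureteric bud list below, and which cells hold the transcript was not tested. *Aldh1a2*, the main retinoic acid-synthesising enzyme of the stroma, gave 0.10±0.06, and *Tcf21*, a stromal and podocyte transcription factor, −0.021±0.12. *Dlk1*, an imprinted Notch ligand-like gene of immature mesenchyme, was at 161, 83.8 and 342 FPKM in the controls and 68.2, 68.8 and 94.3 FPKM in the mutants (−1.13±0.48). Control replicate 3 stood far above all other libraries. In the medullary and ureteric stroma list, 13 of 22 tested members were lower and 9 higher (median −0.11, and 0.014 against control replicate 2 alone). At an unadjusted P under 0.05, 2 were lower and 0 higher. This list also holds *Wnt4*, *Gata3* and *Wnt11*, described here for nephrons or the ureteric bud, so it is not specific to stroma. Its members with mutants wholly above controls were *Wnt4* and *Gata3*. *Acta2* (smooth muscle actin) was at 22, 16.1 and 80.6 FPKM in the controls and 16.1, 22.4 and 20.4 FPKM in the mutants (−0.65±0.58), where only control replicate 3 was above all mutants, and *Wnt11*, a Wnt ligand of bud tips and ureteric mesenchyme, gave 0.049±0.10.

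Matrix genes were the most one-sided stromal group. Of 29 genes for collagens, proteoglycans and other matrix proteins, 28 were lower and 1 was higher (median log2 fold change −0.64), and 8 were lower at an unadjusted P under 0.05. For 0 of the 29 did the groups lie apart. *Col1a1*, a chain of fibrillar type I collagen, was at 548, 240.0 and 564 FPKM in the controls and 233, 231 and 290.5 FPKM in the mutants (−0.75±0.33). *Col3a1*, the type III chain, was at 651, 369 and 787 FPKM in the controls and 367, 341 and 417 FPKM in the mutants (−0.62±0.27). *Postn*, the matricellular protein periostin, was at 137, 57.9 and 191 FPKM in the controls and 43.5, 37.7 and 58.3 FPKM in the mutants (−1.33±0.43). In each, control replicates 1 and 3 were high and control replicate 2 lay inside the mutant range. Wild type libraries were near the mutants for *Col1a1*, at 233 to 321 FPKM, and inside the control range, above every mutant, for *Postn*, at 81.7 to 133 FPKM. *Col6a3* (−1.16±0.41), *Col6a2* (−0.90±0.33) and *Col14a1* (−0.77±0.27) also had control replicate 2 lowest of the controls and inside the mutant range. The list median was −0.96 without control replicate 2, −0.39 without control replicate 3 and 0.036 against control replicate 2 alone. Skeletal muscle genes shared the direction: 24 of 24 were lower (median −2.04), and 10 (41.7%) had groups apart, beside 9.14% of all members. Their summed levels were 128 to 1346 FPKM in the controls and 73.9 to 149.7 FPKM in the mutants, and control replicate 3 was highest. The muscle median was −1.10 without control replicate 3, −2.95 without control replicate 2 and −0.55, with 8 of 24 higher, against control replicate 2 alone. *Myf5*, *Pax7* and *Ckm* were below the filter. The part of muscle or body wall tissue in the matrix difference was not tested.

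Mural cells, the pericytes and smooth muscle that wrap vessels, arise from the same Foxd1+ lineage. Of their markers 8 of 18 tested members were lower and 10 higher (median 0.016, and −0.11 against control replicate 2 alone). *Pdgfrb*, the receptor that recruits pericytes, was at 16.2, 17.7 and 14.1 FPKM in the controls and 18.1, 18.4 and 19 FPKM in the mutants (0.22±0.10), slightly higher in each mutant. *Kcnj8*, a pericyte potassium channel gene, gave −0.49±0.20, and *Rgs5* 0.056±0.17 with a 95% interval of −0.36 to 0.48. *Cspg4*, which encodes the pericyte proteoglycan NG2, gave −0.17±0.12. The 1 marker with mutants wholly below controls was renin (*Ren1*), the hormone of juxtaglomerular cells, at 7.94, 2.39 and 3.7 FPKM in the controls and 1.79, 1.31 and 1.84 FPKM in the mutants (−1.29±0.43). Wild type replicate 3 held 8.91 FPKM of *Ren1* and the other Wild type libraries 1.43 to 2.17 FPKM, so the high level of control replicate 1 was met in 1 Wild type library and the other Wild type levels reached into the mutant range. *Myocd*, the coactivator of smooth muscle transcription, was at 3.61, 2.62 and 2.6 FPKM in the controls and 1.48, 1.12 and 1.68 FPKM in the mutants (−1.0±0.22) and at 1.98, 1.78, 1.35 and 0.882 FPKM in Wild type. In the contractile list, *Myocd* alone separated the groups. There 13 of 16 tested members were lower and 3 higher, with a median of −0.15 that was 0.0018 without control replicate 3. Against control replicate 2 alone the median was 0.036, with 10 of 16 higher. *Cnn1*, *Myh11* and *Lmod1* of that list were below the 0.5 FPKM filter and were not tested. *Tagln* (transgelin) was at 6.15, 6.68 and 19 FPKM in the controls and 4.02, 11.3 and 12 FPKM in the mutants.

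Genes shared by all endothelium differed little between the groups, with narrow intervals. *Kdr*, the main VEGF receptor, was at 20.4, 19.6 and 18.5 FPKM in the controls and 20.3, 21 and 20.5 FPKM in the mutants (95% interval of the log2 fold change −0.082 to 0.24). *Pecam1*, an endothelial adhesion molecule, was at 29.3, 32.1 and 33.3 FPKM in the controls and 30.3, 33 and 32.5 FPKM in the mutants (−0.16 to 0.19), and *Cdh5*, VE-cadherin, gave an interval of −0.23 to 0.16. Of 17 endothelial genes, 8 were lower and 9 higher (median 0.011), with 1 and 1 at an unadjusted P under 0.05, and against control replicate 2 alone 15 were lower (median −0.13). Against this level background, *Erg*, an ETS transcription factor of endothelial identity, was higher in all mutants at 6.0, 6.75 and 6.06 FPKM in the controls and 7.42, 8.1 and 7.4 FPKM in the mutants (0.28±0.09). *Egfl7*, a secreted factor of sprouting vessels, was lower in all mutants at 43.2, 50.9 and 57.2 FPKM in the controls and 33.3, 41.2 and 36.6 FPKM in the mutants (−0.44±0.13), with 26.5 to 35.4 FPKM in Wild type. These shifts within one cell type ran in opposite directions. In the arterial list, 8 of 14 tested members were lower and 6 higher (median −0.11). *Ltbp4*, a latent TGF-beta binding protein of arterial walls, was at 9.78, 6.9 and 9.37 FPKM in the controls and 4.77, 5.43 and 6.09 FPKM in the mutants (−0.66±0.17). *Gja4*, which encodes connexin 37, was at 5.8, 5.8 and 6.76 FPKM in the controls and 4.04, 4.79 and 5.59 FPKM in the mutants (−0.35±0.15). *Gja5* (connexin 40) at −0.40±0.36 and *Sox17* at −0.16±0.14, both arterial identity genes, overlapped between the groups, and the interval for *Gja5*, −1.28 to 0.48, left its change poorly determined.

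Guidance and growth factors sent to vessels differed gene by gene. Among 36 ligands and receptors, 21 were lower and 15 higher (median −0.042), with 2 lower and 2 higher at an unadjusted P under 0.05. *Sema3a*, a repulsive semaphorin that acts through neuropilin 1, was at 24.9, 19.4 and 23.2 FPKM in the controls and 15.6, 17 and 15.4 FPKM in the mutants (−0.48±0.11). Wild type libraries were at 25.5, 22.3, 25.6 and 23.6 FPKM, above every mutant. *Pdgfa*, a platelet-derived growth factor chain that signals to mesenchyme through *Pdgfra*, was at 19.3, 17.6 and 10.9 FPKM in the controls and 27.1, 24.6 and 23.8 FPKM in the mutants (0.70±0.21). Wild type libraries were at 24.8, 28.3, 23.3 and 21.8 FPKM, above every control, so for *Pdgfa* the controls were the group that stood away from Wild type. *Robo1*, a Slit receptor, was at 25.8, 27.5 and 22.8 FPKM in the controls and 33, 32.9 and 27.6 FPKM in the mutants (0.30±0.11). *Vegfa*, the principal endothelial growth factor, was at 23.2, 26.2 and 28.5 FPKM in the controls and 22.7, 22.6 and 24.5 FPKM in the mutants, with overlap and an interval of −0.38 to 0.071.

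In the nephron lineage, genes of the self-renewing progenitors of the cap mesenchyme differed little. *Six2*, which maintains them, was at 79.9, 73.8 and 96.4 FPKM in the controls and 88.9, 92.5 and 74.6 FPKM in the mutants (95% interval of the log2 fold change −0.27 to 0.34). *Wt1*, needed for the mesenchyme to survive and differentiate, was at 77.5, 80.2 and 77.3 FPKM in the controls and 85.9, 86.6 and 75.2 FPKM in the mutants (0.073±0.07). *Sall1*, a zinc-finger regulator of progenitors, was at 53.8, 57.7 and 46.7 FPKM in the controls and 70.7, 68.3 and 56.3 FPKM in the mutants (0.30±0.12). Taking all 19 progenitor genes tested, 15 were higher and 4 lower (median 0.073), 1 of them at an unadjusted P under 0.05 and 0 with groups apart. Committed nephron genes leaned further, with 16 of 19 higher and a median of 0.20, but 0 passed an unadjusted P of 0.05. *Wnt4*, which drives the mesenchymal-to-epithelial transition of nephrons, was at 8.33, 17.5 and 2.5 FPKM in the controls and 18.9, 18.3 and 18.4 FPKM in the mutants (1.36±0.64). Control replicate 2 was close to the mutants and control replicate 3 far below. The median of the committed nephron list was 0.023 without control replicate 3 and 0.64 without control replicate 2. Against control replicate 2 alone the direction turned, with 17 of 19 lower and a median of −0.19.

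All 22 ureteric bud genes tested were higher in the mutants on average (median 0.52), yet 0 passed an unadjusted P of 0.05. Groups lay apart for 4 (18.2%), beside 11.6% of all members higher. Median log2 levels of the list were 4.29, 4.29 and 3.08 in the controls and 4.32, 4.39 and 4.31 in the mutants. Control replicate 3 alone was low, and without it the median was 0.13. Against control replicate 2 alone, 13 of 22 were lower (median −0.014). *Ret*, the GDNF receptor of bud tips, was at 16, 16.1 and 4.09 FPKM in the controls and 18.5, 20.9 and 19.8 FPKM in the mutants (0.94±0.52). *Gata3*, a ureteric transcription factor, was at 29.5, 36.2 and 9.1 FPKM in the controls and 36.3, 36.3 and 45.4 FPKM in the mutants (0.87±0.50). *Calb1*, the calbindin gene of the bud epithelium, was at 58, 64.9 and 16.4 FPKM in the controls and 66.4, 74.9 and 67.5 FPKM in the mutants (0.81±0.51). *Slco4c1*, an organic anion transporter gene, was at 3.54, 3.69 and 1.25 FPKM in the controls and 4.29, 5.56 and 4.25 FPKM in the mutants (0.85±0.41). In these 4 genes the first and second controls fell just under the mutants and the third control far under. *Gdnf*, the mesenchymal ligand of Ret, gave 0.11±0.09 with an interval of −0.092 to 0.32.

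**Figure D3:**
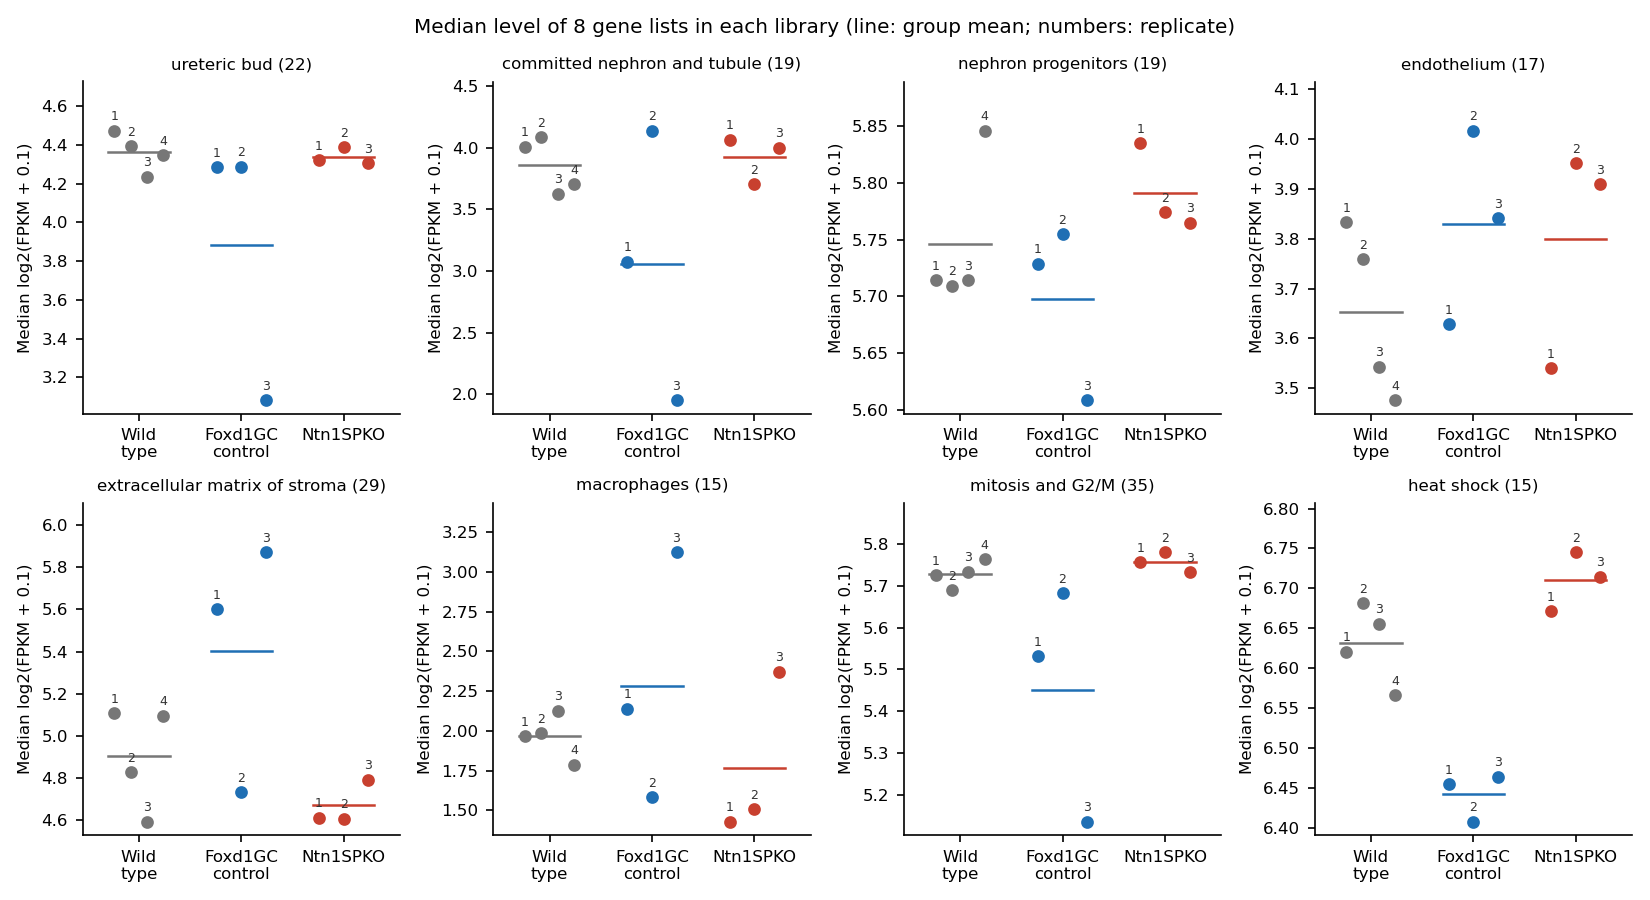
Median log2(FPKM+0.1) of the tested members of 8 gene lists in each of the 10 libraries, with 1 point per library, by group. Heat shock medians of the mutants lie above those of all controls, while in the ureteric bud and committed nephron lists control replicate 3 is the library farthest below the rest. Lines mark group means and numbers the replicates.

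Macrophages, which enter the kidney early in development, were lower in all of 15 marker genes (median −0.47), with 2 at an unadjusted P under 0.05. Medians of the list were 2.14, 1.58 and 3.13 in the controls and 1.43, 1.51 and 2.37 in the mutants, which overlapped, and the median was 0.0052 against control replicate 2 alone. *C1qb*, a complement component made by tissue macrophages, was at 7.84, 6.1 and 12.2 FPKM in the controls and 4.61, 5.55 and 6.08 FPKM in the mutants (−0.63±0.26). *Fcgr1*, the high-affinity Fc receptor gene, was at 0.879, 0.904 and 1.58 FPKM in the controls and 0.449, 0.648 and 0.706 FPKM in the mutants (−0.77±0.33). *Csf1r*, the receptor on which macrophages depend, was at 4.31, 2.76 and 8.83 FPKM in the controls and 2.39, 2.74 and 6.74 FPKM in the mutants (−0.41±0.53), with mutant replicate 3 among the controls. Other tissues near the kidney gave values too. Of 6 liver and gut genes 6 were lower (median −1.54), 5 of them at an unadjusted P under 0.05, with summed levels of 16.9 to 38.2 FPKM in the controls and 9.15 to 18.1 FPKM in the mutants. *Afp* (alpha-fetoprotein) was at 15.1, 5.09 and 12.5 FPKM in the controls and 1.43, 1.38 and 5.85 FPKM in the mutants and *Alb* (albumin) at 8.74, 3.65 and 6.73 FPKM in the controls and 0.703, 0.925 and 4.27 FPKM in the mutants, with mutant replicate 3 in the control range for both. The liver and gut median was −0.75 against control replicate 2 alone. *Serpina1b*, an alpha-1 antitrypsin gene, was lower in all mutants (−1.59±0.43). Erythroid genes gave a median of −0.69 with 0 of 13 at an unadjusted P under 0.05. That median was −0.37 without mutant replicate 1, −0.41 without control replicate 3 and −1.32 without mutant replicate 3, and −0.031 against control replicate 2 alone. Neural genes gave −0.18, but 0.12 without control replicate 2 and −0.032 without mutant replicate 1. Among them *Erbb3*, a neuregulin receptor of Schwann cell precursors, was higher (0.35±0.13). Skeletal genes gave −0.049, or 0.061 without control replicate 1. Among them *Runx2*, the osteoblast transcription factor, was lower (−1.19±0.35).

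Signals between the compartments were read by pathway. Canonical Wnt signalling, which works through beta-catenin, induces nephrons and maintains the stroma. In its list 8 of 25 tested members were lower and 17 higher (median 0.19). That median was 0.056 without control replicate 3. Against control replicate 2 alone it was −0.022, with 13 of 25 lower. Secreted inhibitors differed in opposite directions. *Wif1*, which binds Wnt ligands, was at 2.12, 1.18 and 1.94 FPKM in the controls and 0.982, 0.61 and 0.734 FPKM in the mutants (−1.06±0.30) and at 2.16, 2.01, 2.03 and 2.45 FPKM in Wild type. *Notum*, a deacylase that inactivates Wnt proteins and is itself a Wnt target, was at 1.74, 3.05 and 0.549 FPKM in the controls and 3.82, 6.42 and 4.62 FPKM in the mutants (1.67±0.57) and at 2.92, 3.07, 2.58 and 1.71 FPKM in Wild type. For both genes the mutants lay beyond the controls on one side, *Wif1* below and *Notum* above all other libraries. *Sp5*, a direct Wnt target, was also higher in each mutant (0.69±0.31). The antagonist gene *Dkk2* was at 17.4, 8.44 and 25.3 FPKM in the controls and 7.79, 6.74 and 8.71 FPKM in the mutants (−1.0±0.38), with control replicate 2 inside the mutant range. *Sfrp1*, a secreted Frizzled-related protein, gave −0.63±0.28.

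Of 24 BMP and TGF-beta genes, 13 were lower and 11 higher (median −0.012). *Tgfb2*, a TGF-beta ligand, was at 27.6, 15.9 and 39.4 FPKM in the controls and 13.7, 13.2 and 13.8 FPKM in the mutants (−0.93±0.31). The mutants were tightly grouped, the controls spread over more than the whole difference, and Wild type was at 18.4, 16.7, 16.7 and 22.7 FPKM. *Inhba*, the activin A subunit, was at 2.21, 0.812 and 4.56 FPKM in the controls and 0.552, 0.902 and 0.611 FPKM in the mutants (−1.47±0.59), and the BMP antagonist *Chrd* (chordin) gave −0.89±0.35, both with overlap. *Id2*, a target of BMP signals, was at 126, 150.2 and 91.4 FPKM in the controls and 157, 154 and 164 FPKM in the mutants (0.40±0.17), and *Skil*, a feedback repressor of Smad signalling, gave 0.20±0.08. In the FGF and GDNF-Ret list, 6 of 22 tested members were lower and 16 higher (median 0.098). *Fgf2*, basic fibroblast growth factor, was at 5.37, 4.56 and 7.2 FPKM in the controls and 3.02, 3.87 and 2.58 FPKM in the mutants (−0.83±0.22). *Fgf1*, acidic fibroblast growth factor, was at 5.13, 4.88 and 4.68 FPKM in the controls and 3.42, 4.46 and 3.11 FPKM in the mutants (−0.42±0.15). Both ligands were lower in every mutant, although Wild type libraries, at 2.54 to 3.43 FPKM, lay with the mutants for *Fgf1* and at 3.30 to 5.89 FPKM across both groups for *Fgf2*.

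Other developmental pathways were near level. Hedgehog genes gave a median of −0.11 with 10 of 13 lower. *Ptch1*, the receptor and a target, gave 0.17±0.12 and *Gli1*, a transcriptional target, −0.22±0.18, while the co-receptor gene *Cdon* was lower in each mutant at 18.4, 15.2 and 25.4 FPKM in the controls and 14.1, 14.6 and 14.5 FPKM in the mutants (−0.41±0.18). Retinoic acid genes gave a median of 0.026, and *Rbp4*, the retinol carrier, was at 2.04, 1.35 and 1.65 FPKM in the controls and 1.09, 1.09 and 0.818 FPKM in the mutants (−0.69±0.24). Notch genes gave a median of 0.025, or −0.19 against control replicate 2 alone. *Lfng*, a glycosyltransferase that tunes Notch receptors, was at 8.3, 8.66 and 9.14 FPKM in the controls and 7.53, 5.79 and 7.21 FPKM in the mutants (−0.35±0.12), below every Wild type library as well, at 11.1, 10.5, 9.91 and 9.07 FPKM. *Hes1*, a Notch target, was at 43.2, 48 and 52 FPKM in the controls and 41.4, 44 and 38.1 FPKM in the mutants (−0.21±0.09), with overlap.

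Immediate early genes, which respond within minutes to growth factors and handling, gave a median of −0.13 over 27 members, 0 lower and 1 higher at an unadjusted P under 0.05. *Myc*, a growth-promoting transcription factor, was at 45.4, 46.1 and 45.4 FPKM in the controls and 53.3, 54.6 and 50.2 FPKM in the mutants (0.21±0.06), higher than in any control or Wild type library, the latter at 42.5, 44.9, 44.9 and 45 FPKM. *Fos*, the standard early gene, gave 0.034±0.50.

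Genes of the heat shock list differed by a small amount that was even across libraries. Heat shock factors bind heat shock elements to induce cytosolic chaperones, and the unfolded protein response acts through endoplasmic reticulum (ER) stress elements to induce ER chaperones. In the heat shock list, 3 of 15 tested members were lower and 12 higher (median 0.17), 1 lower and 8 higher at an unadjusted P under 0.05 and 1 lower and 8 higher with groups apart, beside backgrounds of 5.6% and 11.6% of members higher. Median log2 levels of the list were 6.45, 6.41 and 6.46 in the controls and 6.67, 6.75 and 6.71 in the mutants, so the groups did not overlap, and Wild type medians of 6.57 to 6.68 also stood above the controls. The median log2 fold change was 0.15 without control replicate 3, 0.22 without control replicate 2 and 0.11 against control replicate 2 alone. In the ER and integrated stress list, 8 of 24 tested members were lower and 16 higher (median 0.16), with 6 higher and 0 lower at an unadjusted P under 0.05. Its median log2 levels were 4.75, 4.89 and 4.76 in the controls and 5.09, 5.04 and 4.88 in the mutants, which overlapped. The median log2 fold change was 0.11 without control replicate 1 and 0.054 against control replicate 2 alone.

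Promoters of these chaperone genes are shown because the 2 motifs that name the pathways are spelled out in them. The heat shock element was searched as GAANNTTC or TTCNNGAA, each of which reads the same on both strands, and the ER stress element as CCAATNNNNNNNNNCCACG or its reverse complement CGTGGNNNNNNNNNATTGG, in the 250 bases before each gene start of RefSeq (GRCm38.p6). The heat shock element was present in 8 of the 12 heat shock genes with a promoter in the table (66.7%) and in 12.1% of 10453 tested genes with one. The ER stress element was present in 5 of 22 stress response genes (22.7%) and in 0.163% of those 10453 genes. Over all 32851 promoters in the table, the shares were 12.8% and 0.113%. *Hspa8*, *Hsp90aa1* and *Hyou1* had no entry in the table. Windows of 100 bases are read on the strand of the gene, with all matches inside them in capitals (adjacent or overlapping matches run together). Those for the heat shock element follow first. They lie at chr5:149636337-149636436 for *Hsph1*, chr1:55088007-55088106 for *Hspd1*, chr1:55088029-55088128 for *Hspe1*, chr4:40722314-40722413 for *Dnaja1* and chr5:135887772-135887871 for *Hspb1*. *Hspd1* and *Hspe1* are divergent neighbours, so their windows show one stretch on opposite strands.
Hsph1: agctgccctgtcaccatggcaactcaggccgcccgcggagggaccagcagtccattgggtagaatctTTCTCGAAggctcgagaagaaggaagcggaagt
Hspd1: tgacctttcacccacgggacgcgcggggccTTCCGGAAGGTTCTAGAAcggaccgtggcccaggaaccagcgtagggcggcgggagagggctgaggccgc
Hspe1: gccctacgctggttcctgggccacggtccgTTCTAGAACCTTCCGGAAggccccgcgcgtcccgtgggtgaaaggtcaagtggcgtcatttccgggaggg
Dnaja1: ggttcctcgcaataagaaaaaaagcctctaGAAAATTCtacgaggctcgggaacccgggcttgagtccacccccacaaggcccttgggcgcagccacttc
Hspb1: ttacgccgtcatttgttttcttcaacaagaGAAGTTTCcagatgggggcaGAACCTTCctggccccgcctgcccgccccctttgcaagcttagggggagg

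The ER stress element windows lie at chr10:86705587-86705686 for *Hsp90b1*, chr15:88819490-88819589 for *Creld2*, chr8:84847024-84847123 for *Calr* and chr2:34771990-34772089 for *Hspa5*. *Hsp90b1* holds 2 matches, and the later match lies outside its window.
Hsp90b1: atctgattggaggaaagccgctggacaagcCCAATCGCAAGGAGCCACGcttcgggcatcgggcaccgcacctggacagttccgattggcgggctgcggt
Creld2: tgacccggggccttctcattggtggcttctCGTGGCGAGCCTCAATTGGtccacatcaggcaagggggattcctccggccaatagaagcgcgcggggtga
Calr: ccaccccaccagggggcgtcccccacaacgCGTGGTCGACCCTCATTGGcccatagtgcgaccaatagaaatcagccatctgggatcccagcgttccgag
Hspa5: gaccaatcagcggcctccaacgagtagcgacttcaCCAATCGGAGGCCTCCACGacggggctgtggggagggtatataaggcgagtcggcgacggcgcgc

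Of the genes with a heat shock element, *Hsph1*, a nucleotide exchange factor for Hsp70, was at 87.6, 84.8 and 88.2 FPKM in the controls and 102, 107 and 105 FPKM in the mutants (0.27±0.05). *Hspd1*, the mitochondrial chaperonin Hsp60, was at 335, 394 and 283 FPKM in the controls and 446, 412 and 406 FPKM in the mutants (0.33±0.12). Its partner *Hspe1*, transcribed from the other side of the same stretch, was at 392, 431 and 421 FPKM in the controls and 412, 414 and 385 FPKM in the mutants (−0.038±0.06), with overlapping groups. *Dnaja1*, a co-chaperone of Hsp70, was at 284, 330.3 and 330.3 FPKM in the controls and 362, 361 and 349 FPKM in the mutants (0.19±0.07), and *Fkbp4*, a co-chaperone of Hsp90, gave 0.16±0.07. The element did not mark a direction, since *Hspb1*, a small heat shock protein gene, was lower at 9.69, 6.87 and 14.1 FPKM in the controls and 5.96, 6.19 and 5.91 FPKM in the mutants (−0.69±0.25). *Hspa1b*, an inducible Hsp70 gene, was at 1.88, 2.25 and 1.92 FPKM in the controls and 2.97, 2.72 and 2.85 FPKM in the mutants (0.48±0.14). This low value is shared with the near-identical copy *Hspa1a* (0.38±0.35) and reads could be split between them. Constitutive *Hspa8* was at 2680.0, 3077 and 2862 FPKM in the controls and 3483, 3486 and 3393 FPKM in the mutants (0.27±0.07), and the cytosolic Hsp90 gene *Hsp90aa1* at 611, 655 and 555 FPKM in the controls and 787, 804 and 687 FPKM in the mutants (0.32±0.09).

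Of the genes with an ER stress element, *Hsp90b1*, the ER Hsp90, was at 582, 647 and 478 FPKM in the controls and 925, 769 and 799.5 FPKM in the mutants (0.55±0.13). Wild type libraries were at 818, 792, 725 and 713 FPKM, above all controls. *Calr*, the calcium-binding chaperone calreticulin, was at 525, 551 and 576 FPKM in the controls and 603, 609 and 618 FPKM in the mutants (0.15±0.05), and *Creld2*, an ER stress-inducible disulfide isomerase-like gene, at 25.4, 26.8 and 25.5 FPKM in the controls and 28.3, 30.4 and 28.8 FPKM in the mutants (0.17±0.06). In all 3 the mutants lay above the controls. *Hspa5*, the ER Hsp70, was at 346, 366 and 428 FPKM in the controls and 418, 465 and 410.4 FPKM in the mutants (0.19±0.09), with control replicate 3 above 2 of the mutants. *Pdia6*, which also holds the element, gave −0.092±0.16. *Pdia4*, a protein disulfide isomerase, was at 131, 138 and 136 FPKM in the controls and 159.7, 162 and 154 FPKM in the mutants (0.23±0.05), *Hyou1*, an ER Hsp70 relative, at 57.3, 61.8 and 56.5 FPKM in the controls and 74.1, 72.8 and 68.8 FPKM in the mutants (0.30±0.06) and *Slc3a2*, an amino acid transporter subunit, at 47.2, 52.6 and 38.1 FPKM in the controls and 57.8, 62.2 and 73.9 FPKM in the mutants (0.50±0.14). The 4 transcription factors of the list overlapped between the groups. *Atf4* gave 0.0076±0.07 with an interval of −0.16 to 0.17, and *Ddit3*, the CHOP gene, spread from 7.42 to 44 FPKM within the 6 libraries and was listed at 0 in Wild type replicates 1, 2 and 4. *Atf5* gave −0.089±0.07 and *Xbp1* −0.11±0.14.

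**Figure D4:**
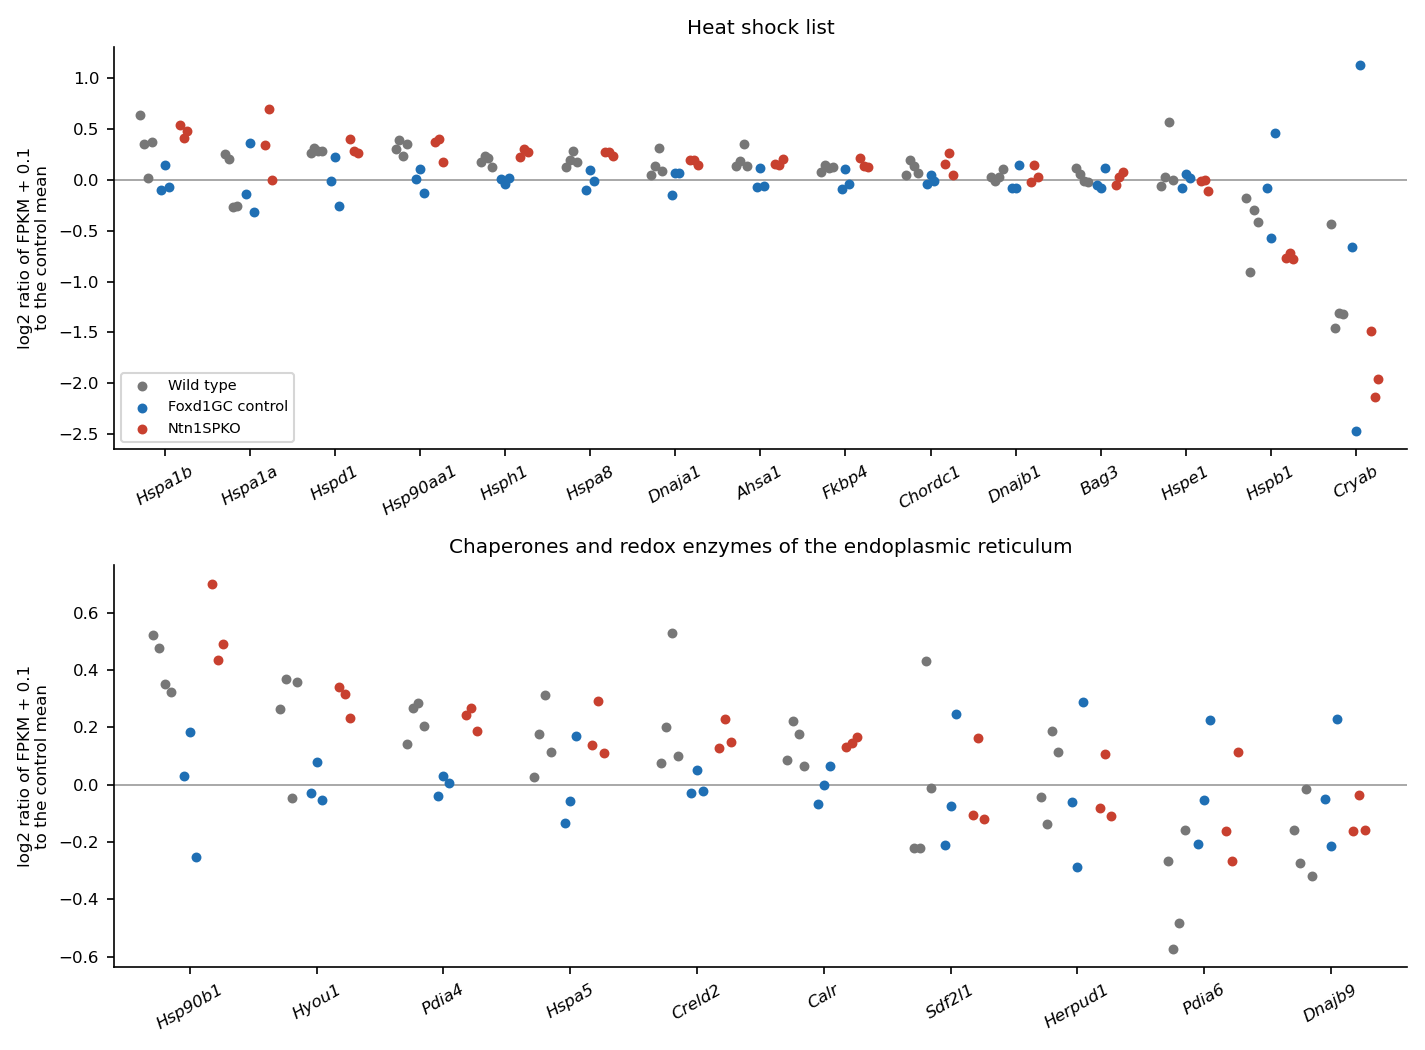
Log2 ratio of each library to the control mean for the tested heat shock genes and for 10 ER chaperone and stress genes, with 1 point per library coloured by group. Most chaperones lie above the control mean in all 3 mutants and in most Wild type libraries, and the mutants lie below it for *Hspb1* and *Cryab*.

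Several glycolytic genes were higher by a small amount, but their list as a whole was not separated. Its median log2 levels were 4.84, 4.78 and 5.04 in the controls and 4.85, 4.87 and 4.90 in the mutants. *Gapdh* and *Mif* of the list changed direction between fits, with log2 fold changes of −0.0074 to 0.31 and −0.11 to 0.14. In the hypoxia and glycolysis list, 10 of 29 tested members were lower and 19 higher (median 0.054), with 6 of 29 higher and 0 lower at an unadjusted P under 0.05, and the median was 0.00066 against control replicate 2 alone. *Pfkl*, the liver-type phosphofructokinase, was at 45.1, 51.2 and 44.9 FPKM in the controls and 55.7, 55.9 and 55 FPKM in the mutants (0.24±0.07). *Slc2a1*, the glucose transporter GLUT1, was at 32.1, 33.3 and 32.9 FPKM in the controls and 37.1, 36.7 and 36.4 FPKM in the mutants (0.16±0.05). *Eno1*, an enolase, was at 652, 772 and 641 FPKM in the controls and 824, 823 and 798 FPKM in the mutants (0.25±0.08). The glucose phosphate isomerase gene *Gpi1* (0.18±0.06), hexokinase *Hk2* (0.41±0.14) and the pyruvate dehydrogenase kinase gene *Pdk1* (0.15±0.06) also lay higher in every mutant. *Adm*, which encodes the vasoactive peptide adrenomedullin, was lower in every mutant, at 2.63, 0.977 and 2.09 FPKM in the controls and 0.921, 0.975 and 0.888 FPKM in the mutants (−0.86±0.37). Cholesterol synthesis genes gave a median of 0.045 with 0 of 24 at an unadjusted P under 0.05.

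Among cell cycle genes, 34 of 35 mitotic genes were higher (median 0.26) and 16 had groups apart, a share to be read against the 11.6% background, while 3 passed an unadjusted P of 0.05. *Bub1b*, a spindle checkpoint kinase, was at 58.8, 73.9 and 55.9 FPKM in the controls and 74.5, 75.8 and 76 FPKM in the mutants (0.27±0.11), and *Top2a*, a topoisomerase of dividing cells, at 202, 201 and 143 FPKM in the controls and 227, 220.4 and 219 FPKM in the mutants (0.30±0.14). Control replicate 3 was low and the list median was 0.11 without it and 0.03 against control replicate 2 alone. DNA replication genes were higher in 35 of 42 (median 0.11), 8 of them at an unadjusted P under 0.05, with a median of 0.054 without control replicate 3. *Mcm4*, a subunit of the replicative helicase, was at 79.5, 81.2 and 73 FPKM in the controls and 92, 88.4 and 90.8 FPKM in the mutants (0.22±0.06), and *Cdc6*, which loads that helicase, at 17.8, 19.6 and 15.9 FPKM in the controls and 24, 21 and 22.3 FPKM in the mutants (0.34±0.10). Wild type libraries held 85.7 to 90.2 FPKM of *Mcm4*, as the mutants did. Targets of p53 gave a median of 0.068. *Ccng1*, cyclin G1, was at 15.4, 16.8 and 17.4 FPKM in the controls and 21.2, 21.4 and 19.9 FPKM in the mutants (0.33±0.07), and *Mdm2*, the ubiquitin ligase that restrains p53, at 22.7, 24.1 and 20.4 FPKM in the controls and 25.5, 26.6 and 24.5 FPKM in the mutants (0.19±0.08). Interferon-response genes gave a median of −0.061, with *Rsad2* (viperin) at 0.68±0.21 and *Ifi35* at −0.58±0.22.

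Ribosomal protein genes leaned lower by a small amount. The list does not hold *Rpl26*, which was higher and past the adjusted threshold. Of its 45 genes tested, 40 were lower (median −0.11, or −0.036 after quantile normalization). At an unadjusted P under 0.05, 10 were lower, and 24 had mutants wholly below controls. The background shares of all members were 5.12% and 9.14%. *Rplp1*, an acidic stalk protein, was at 2359.6, 2241 and 2595 FPKM in the controls and 1956, 2122 and 1975 FPKM in the mutants (−0.25±0.07), *Rpl12* at 286, 279 and 335 FPKM in the controls and 209, 261 and 217 FPKM in the mutants (−0.39±0.11) and *Rpl27* at 891, 822 and 955 FPKM in the controls and 660.3, 792 and 703 FPKM in the mutants (−0.31±0.09), the last pair encoding large-subunit proteins. Medians of the list were 10.63, 10.70 and 10.67 in the controls and 10.55, 10.64 and 10.57 in the mutants, which overlapped. Many ribosomal protein genes have processed pseudogenes like that of *Rpl26*, so single values in this family are uncertain. Among oxidative phosphorylation genes, 31 of 45 tested members were lower and 14 higher (median −0.07), 7 lower and 2 higher at an unadjusted P under 0.05. *Cox7c*, a small subunit of cytochrome oxidase, was at 571, 614 and 673 FPKM in the controls and 501, 539 and 488 FPKM in the mutants (−0.28±0.08), and *Sdhc*, a membrane subunit of succinate dehydrogenase, at 250.2, 236 and 234 FPKM in the controls and 212, 205 and 206 FPKM in the mutants (−0.21±0.05). *Sdha*, the catalytic subunit of that same enzyme, was higher at 94.2, 98.4 and 91.5 FPKM in the controls and 112, 102 and 111 FPKM in the mutants (0.19±0.06), as was *Ndufs1*, the largest subunit of complex I (0.17±0.05).

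**Figure D5:**
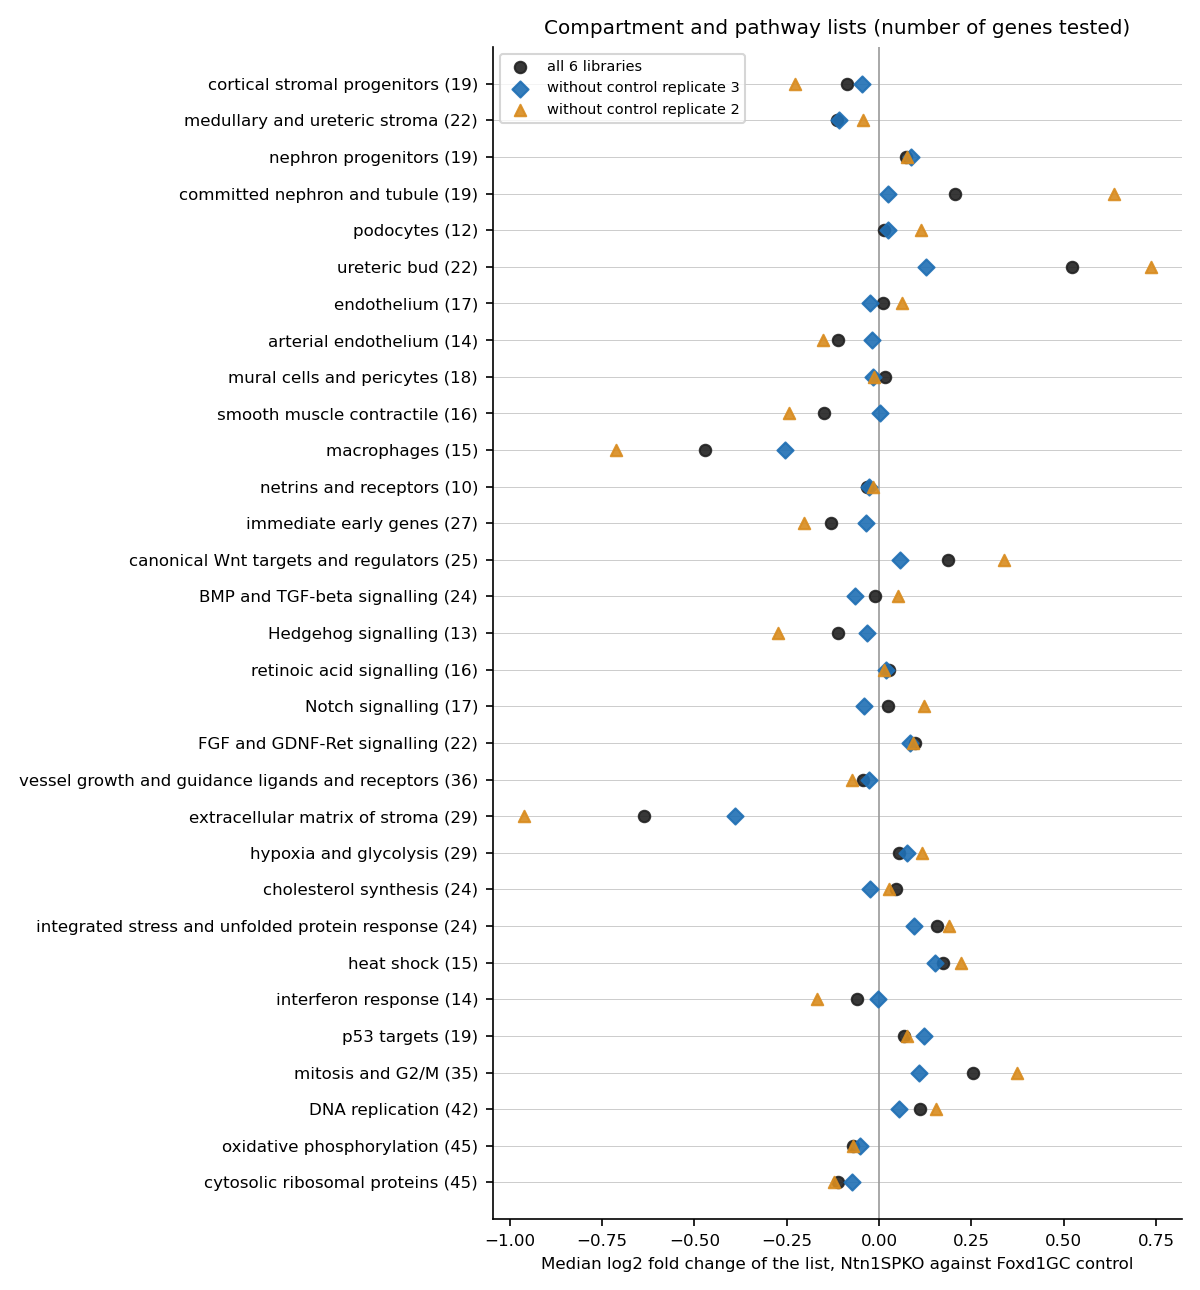
Median log2 fold change (Ntn1SPKO over Foxd1GC control) of the tested members of 31 compartment and pathway lists, with all 6 libraries, without control replicate 3 and without control replicate 2. The matrix list (−0.64) and the macrophage list (−0.47) lie farthest below 0 and the ureteric bud list (0.52) farthest above it, and each of these shifts toward 0 without control replicate 3 and away from it without control replicate 2.

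Outside the skeletal muscle list, the largest differences among genes with an unadjusted P under 0.05 and groups apart ran from −4.23 to −1.93 on the lower side. *Crygn*, a crystallin gene, was at 13.2, 6.49 and 8.77 FPKM in the controls and 0.131, 0.065 and 3.0 FPKM in the mutants (−4.23±1.09). Wild type replicate 3 held 0.188 FPKM and the other Wild type libraries 4.88 to 7.94 FPKM. *Stmn4*, a neuronal stathmin gene, gave −2.91±0.66. *Pax1* (−2.69±0.85) and *Pitx1* (−2.56±0.93), transcription factors known from sclerotome and hindlimb, *Vgll2* (−2.63±1.00), *Apobec2* (−2.37±0.88) and *Myom2* (−2.73±1.04), the last 3 known from skeletal muscle though not in that list, were lower as well. For *Pax1*, *Pitx1*, *Vgll2*, *Apobec2* and *Myom2*, control replicate 3 was highest and control replicate 2 lowest of the controls, as in the muscle list. *Krt5*, a basal keratin of stratified epithelium, was at 1.25, 0.976 and 2.02 FPKM in the controls and 0.261, 0.121 and 0.366 FPKM in the mutants (−2.12±0.44). *Angptl1* (−2.50±0.76), an angiopoietin-like secreted factor, *Epyc* (−2.10±0.65), a cartilage proteoglycan, *Tceal7* (−2.45±0.89) and *Serpina3g* (−1.93±0.70) complete the lower side.

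On the higher side, *Sorl1*, a sorting receptor of the endosome, was at 6.43, 5.88 and 3.71 FPKM in the controls and 40.2, 23.5 and 16.4 FPKM in the mutants (2.24±0.36), with 7.33, 25.5, 8.48 and 7.28 FPKM in Wild type. *Rec8*, a meiotic cohesin subunit, was at 3.85, 10.4 and 1.93 FPKM in the controls and 14.8, 18.1 and 17.6 FPKM in the mutants (1.94±0.55). Wild type libraries, at 14, 14.6, 17.3 and 14.8 FPKM, were with the mutants for *Rec8* and above all controls. *Pnldc1*, a trimmer of piRNAs, showed the same arrangement, at 0.232, 0.306 and 0.432 FPKM in the controls and 1.16, 0.929 and 1.52 FPKM in the mutants (1.63±0.35) against 1.26, 0.96, 1.15 and 1.28 FPKM in Wild type. *Arntl2*, a clock transcription factor, was at 0.909, 0.926 and 1.07 FPKM in the controls and 1.7, 3.68 and 4.36 FPKM in the mutants (1.55±0.35) and at 1.18 to 1.73 FPKM in Wild type. *Msx2*, a homeobox target of BMP signals, was at 0.466, 0.518 and 0.115 FPKM in the controls and 0.919, 1.28 and 1.44 FPKM in the mutants (1.62±0.49). *Cr2*, a complement receptor gene, was at 0.21, 0.172 and 0.0732 FPKM in the controls and 3.13, 0.27 and 3.51 FPKM in the mutants (2.73±0.92), with mutant replicate 2 near the controls. *Tmem238* (1.68±0.55), *Padi2* (1.66±0.62) and *Col7a1* (1.56±0.58), the anchoring fibril collagen, had mutants that themselves differed more than the gap to the controls. A lower-level entry of *Lmbrd2* was listed at 0 in 2 controls and at 0.890 FPKM in the third, against 2.87, 1.54 and 1.80 FPKM in the mutants, and no fold is given for it.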

How the data were processed

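RNA of whole E13.5 kidneys (3 Foxd1GC control, 3 Ntn1SPKO and 4 Wild type libraries) was extracted with a QIAGEN RNeasy micro kit. Per the paper's methods and the labels, the authors estimated transcript abundance with Salmon on Ensembl GRCm38 coding sequences and deposited FPKM values per gene, and their DESeq2 step was not repeated because no counts were used here. Median-of-ratios factors computed from the deposited FPKM were between 0.998 and 1.00 in the 6 libraries, so the values already carry a scaling of that kind. Depth and counting error are unknown. Groups were taken from the sample titles.

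The test was limma 3.58.1 in R 4.3.3 (eBayes with an intensity trend) on log2(FPKM+0.1) of the 6 libraries, for 14550 entries with a mean of at least 0.5 FPKM, with Benjamini-Hochberg adjustment over all of them. A gene was called at adjusted P under 0.1 and a fold of at least 2. Gene types came from GENCODE M21 for 13108 members and from RefSeq for 174, and 518 entries without a type were not counted as protein-coding. Where a symbol had more than 1 entry, the one with the highest mean is meant. Statistics were tested on simulated data. Members and the 40 gene lists were chosen with earlier results of these data known. Named were *Ntn1*, *Klf4*, *Lmx1b* and *Foxd1*, called genes, the 12 largest differences in each direction outside skeletal muscle with an unadjusted P under 0.05 and groups apart, and in each list up to 4 genes by smallest P and 3 by highest level. *Rpl26*, *Gm15772*, *Gm8797*, *Ubb*, *Hspd1*, *Dnaja1*, *Fkbp4*, *Hspb1*, *Hspa1a*, *Creld2*, *Pdia6*, *Atf4*, *Atf5*, *Xbp1*, *Ddit3*, *Adm*, *Hk2*, *Pdk1*, *Gata3*, *Gdnf*, *Wnt11*, *Csf1r*, *Tagln*, *Acta2*, *Cspg4*, *Gja5*, *Sox17*, *Dcc*, *Unc5b* and *Fos* were chosen after their values were seen. Alternatives changed the pseudocount, filter, scaling, entries fitted, eBayes settings and libraries, added the Wild type group, a replicate block or embryo sex, or left out each library. Promoter and transcript sequences came from RefSeq (GRCm38.p6) and GENCODE M21. Python 3.11.15 with pandas 2.3.3 and matplotlib 3.10.9 was used for lists and figures.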

Additional observations from a re-analysis of the deposited data

Results flagged for a closer look

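Of 65 sets of 4 Wild type values examined (named genes of the largest differences and list medians, on the log2 scale), 5 had one library far from the other 3 by Dixon's ratio of its gap to the whole range, above the 95% critical value. Chance alone flags a set of this size at a rate of about 0.05. *Crygn* was low in Wild type replicate 3 (ratio 0.856), and *Sorl1* was high in Wild type replicate 2 (0.879), where its level of 25.5 FPKM lay within the mutant range. The median of nephron progenitor genes was high in replicate 4 (0.962). Mural cell and pericyte genes were low in replicate 3 (0.861), and ribosomal protein genes were high there (0.856). None of these libraries entered the test of mutants against controls. Groups of 3 libraries were not examined in this way.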

How the results depend on the processing

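Counts of protein-coding genes called depended on single libraries more than on the processing. Leaving out 1 library gave 0 to 39 called lower, 0 to 9 called higher, 332 to 1547 lower and 284 to 1708 higher at an unadjusted P under 0.05, and 1572 to 2915 lower and 1906 to 3386 higher with groups apart, each highest without control replicate 2, the only control with Y-linked transcripts. That fit, in which sex and group cannot be told apart, gave *Smoc2*, *Tgfb2* and *Sema3a* adjusted P of 0.0921, 0.0832 and 0.0921. Without an intensity trend 1 gene was called lower, and with no filter on low values 4 were called higher. With all 10 libraries, with a replicate block or with embryo sex as a covariate, 0 were called higher; at an unadjusted P under 0.05 these fits gave 702, 736 and 228 lower and 792, 743 and 183 higher. Same-numbered libraries deviated with correlations of −0.047, 0.0088 and 0.027, and differently numbered ones with −0.067 to 0.059. With 3 libraries a group, such values cannot show whether the numbers pair the samples. Of 4485 values of 250 genes under an alternative, 4359 were counted as the same. For genes with groups apart or past the threshold, that meant the same direction and side of the threshold. For all other genes it meant a move smaller than the spread between replicates, and their direction was not checked. Of 720 list medians, 25 moved by more than the spread between replicates. Against control replicate 2 alone, among others, the medians of the committed nephron (−0.19), Notch (−0.19), endothelial (−0.13), mural (−0.11), ureteric bud (−0.014), medullary and ureteric stroma (0.014), matrix (0.036), cortical stromal (0.043) and guidance (0.060) lists lay on the other side of 0. The interferon median did so with a filter at 1 FPKM (0.041) and without mutant replicate 1 (0.11). The cause of these changes was not tested. With 3 libraries a group and unknown depth, small differences in low genes could not be resolved.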

Other observations

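Lists of tissues that a kidney dissection can carry along had few members above 0.5 FPKM. Body wall and mesothelium gave 2 lower and 3 higher of 5 tested, median 0.029 and −0.13 to 0.063 with 1 library left out. Adipose tissue gave 2 lower and 2 higher of 4 tested, median −0.033 and −0.10 to 0.093 with 1 library left out, and adrenal cortex and gonad 0 lower and 2 higher of 2 tested, median 0.30, with *Nr5a1*, *Star* and *Cyp17a1*, the defining genes of steroid-making cells, below the filter. The sex-linked list gave a median of 4.26 because all 3 mutants and 1 control held Y-linked transcripts. Among Wild type libraries, replicate 3 alone held Y-linked transcripts.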
